A study of Gossypium barbadense with 48 samples.

Results

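ACT7 and the alpha subunit of the F-actin-capping protein are 2 of the 69337 genes listed in a study of cotton fiber RNA. They were taken by their identifiers, Gbar_D11G024280 and Gbar_D11G029020, which the study's table of genes in fiber strength intervals names Actin-7 and F-actin-capping protein subunit alpha. RNA from 2 Gossypium barbadense materials, the American PimaS-7 and the Chinese cultivar 5917, both parents of a recombinant inbred population and given no treatment in the labels, was profiled every 5 days from flowering (0) to 35 days post anthesis (DPA). The 16 groups held 3 libraries each, which makes 48. By the study's methods ovules were taken on the day of flowering and fibers thereafter, although every library is labelled as fiber, so tissue and stage cannot be told apart at the 5 vs 0 DPA step. The study calls the 3 replicates of a group biological, and the sources used here do not say whether they came from separate plants. The p-values therefore judge differences against the spread between these libraries only.

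Actin monomers join into filaments that carry organelles and secretory vesicles through plant cells, and a cotton fiber is a single seed-coat cell that elongates and then lays down a thick cellulose wall. ACT7 encodes the monomer, and in Arabidopsis it is the actin of growing vegetative tissue that responds to auxin. Capping protein is a heterodimer of an alpha and a beta subunit that binds the fast-growing (barbed) end of a filament and stops monomers from joining or leaving there. In bulk tissue, a lower RNA level per cell and fewer cells with that RNA cannot be told apart.

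Both genes lie on chromosome D11 of the Pima 3-79 assembly. ACT7 spans 42579784 to 42583028 and capping protein alpha 58622406 to 58626370, inclusive, so their spans are 3245 and 3965 bases. The capping protein gene was among the candidates that the study selected partly from these same libraries, so its stage and material pattern is not independent evidence of its role. The study followed it with a pair of quantitative PCR primers, printed 5′ to 3′ because they are the sequences of this gene that the sources used here hold. The PCR itself is not analysed here.
Forward primer: attcgccaccatgagacaga
Reverse primer: tcacttcccgattccaagct
Each primer has 20 bases, of which 10 are G or C.

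ACT7 was already measured in the ovules and became one of the most abundant transcripts of the fiber. Levels here are FPKM, the number of fragments scaled by gene length and library size. A comparison of FPKM between genes depends on the gene lengths used. In PimaS-7 ovules ACT7 was at 27.5, 30.0 and 27.97 FPKM in replicates 1, 2 and 3. At 5 DPA it was at 153, 149 and 96.8 FPKM, and at 10 DPA at 214, 238 and 228 FPKM. Every fiber library lay above every ovule library, and replicate 3 at 5 DPA stood well below the other two. The highest stage in PimaS-7 was 15 DPA, at 303, 271 and 299 FPKM (291 ± 17.4, SD, n = 3). It was at 248, 254 and 264 FPKM at 20 DPA and at 224, 217 and 203 FPKM at 25 DPA. These 3 stages did not overlap, so each was lower than the one before on this scale. The 30 DPA libraries were at 132, 127 and 120 FPKM and the 35 DPA libraries at 89.1, 111 and 96.1 FPKM. The last stage kept 34% of the highest mean, and none of its libraries overlapped those of 30 DPA.

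In 5917 ACT7 followed a similar rise, stayed high to 20 DPA and had its largest drop between 20 and 25 DPA. The ovules were at 31.2, 32.98 and 33.8 FPKM, the 5 DPA fibers at 190, 201 and 163 FPKM and the 10 DPA fibers at 274, 294 and 292 FPKM. These ranges are all apart. ACT7 stood at 315, 319 and 326 FPKM at 15 DPA and at 323, 309 and 329 FPKM at 20 DPA. The latter 2 stages, with means of 320 ± 5.56 and 320 ± 10.0 FPKM (SD, n = 3), overlapped. At 25 DPA ACT7 was at 139, 174 and 136 FPKM, so that 2 of its libraries lay below all those of 5 to 20 DPA and the third above the lowest at 5 DPA. It was at 180, 146 and 158 FPKM at 30 DPA and at 158, 127 and 126 FPKM at 35 DPA, and each of these late stages overlapped its neighbour in the order of means. Among all listed genes, ACT7 ranked between 139 and 175 by FPKM in the libraries of both materials at 15 DPA, and between 2188 and 2889 in the ovules.

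Capping protein alpha started lower than ACT7 and rose by a larger fold to its highest stage. In PimaS-7 ovules the gene was at 6.29, 5.67 and 4.30 FPKM, resting on 244 to 380 reads a library. The 5 DPA libraries held 11.5, 14.1 and 11.4 FPKM, the 10 DPA libraries 37.4, 46.3 and 39.9 FPKM and the 15 DPA libraries 83.3, 91.6 and 100.4 FPKM. Each of these stages was apart from the one before. The 20 DPA libraries were at 98.6, 114 and 107 FPKM (106 ± 7.71, SD, n = 3), the highest mean, and the 25 DPA libraries at 85.8, 129 and 82.8 FPKM. The 15, 20 and 25 DPA ranges overlapped, and replicate 2 at 25 DPA stood far above the other two. The values then dropped to 54.6, 48.1 and 45.8 FPKM at 30 DPA and to 18.4, 21.8 and 9.92 FPKM at 35 DPA. The last stage kept 15.7% of the highest mean and overlapped the 5 DPA stage.

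In 5917 capping protein alpha started from 4.0, 5.21 and 4.16 FPKM in ovules, and the 5 DPA fibers held 22.6, 26.5 and 19.8 FPKM and those of 10 DPA 49.9, 60.2 and 65.5 FPKM. The highest stage came at 15 DPA, with 116, 127 and 127 FPKM (123.4 ± 6.81, SD, n = 3). The 20 DPA libraries, at 121, 105 and 121 FPKM, overlapped these. The gene was at 84.7, 97.7 and 68.8 FPKM at 25 DPA and at 78.0, 72.5 and 79.02 FPKM at 30 DPA, 2 stages that overlapped. At 35 DPA it was at 56.5, 65.3 and 45.1 FPKM, below every 30 DPA library. That stage kept 45.1% of the highest mean, against 15.7% in PimaS-7.

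**Figure D1:**
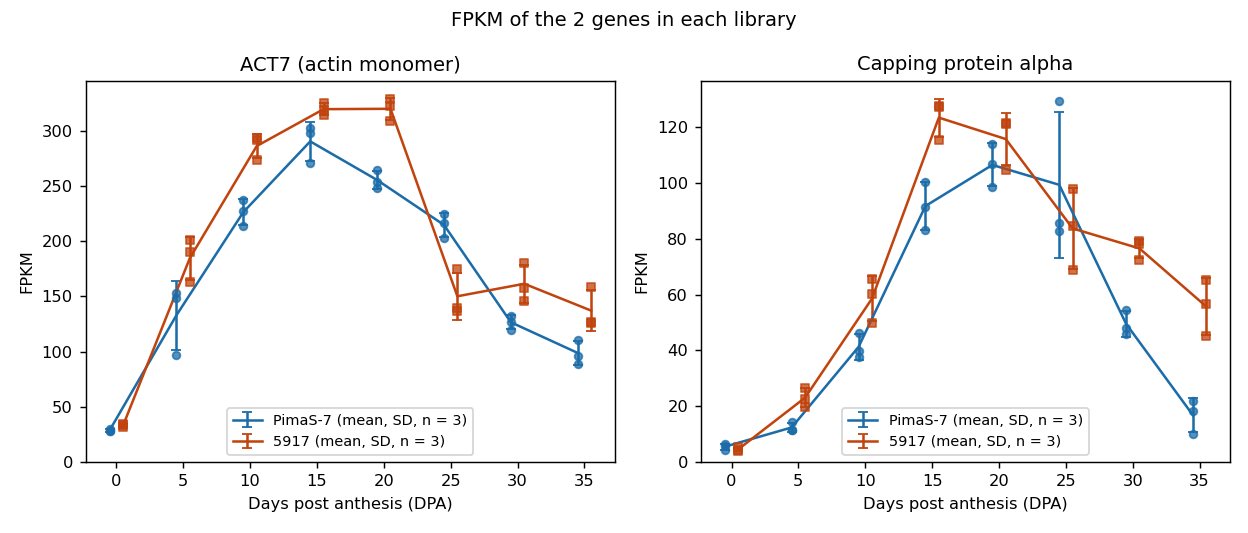
FPKM of ACT7 (left) and capping protein alpha (right) against days post anthesis, with points for libraries and lines with bars for the mean and SD of 3 libraries, PimaS-7 in blue circles and 5917 in orange squares. ACT7 reached its highest means of 291 and 320 FPKM at 15 and 20 DPA, and at 35 DPA capping protein alpha was at 16.7 FPKM in PimaS-7 and 55.6 FPKM in 5917.

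How large the rise was depended on the scale. In FPKM the highest stage mean of ACT7 was 10.2 times the ovule mean in PimaS-7 and 9.80 times in 5917, and that of capping protein alpha was 19.7 and 27.7 times. On CPM (counts scaled to library size) with TMM factors, which set the typical gene as unchanged between libraries, the same folds were 20.7 and 22.8 for ACT7 and 39.9 and 54.0 for capping protein alpha. CPM of the library totals alone gave 9.70, 9.50, 16.2 and 22.5 in the same order, near those of FPKM for ACT7 and below them for capping protein alpha. The TMM factors ranged from 0.586 to 1.89 over the libraries. In PimaS-7 the scales also placed the end of the plateau differently: at 25 DPA ACT7 held 73.9% of its highest stage in FPKM and 93.5% on the TMM scale, and capping protein alpha was highest at 20 DPA in FPKM and at 25 DPA on the TMM scale. That 25 DPA mean of capping protein alpha rested on replicate 2, at 284 CPM. Replicates 1 and 3, at 179 and 167 CPM, lay within the 20 DPA range of 156 to 213 CPM.

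**Figure D2:**
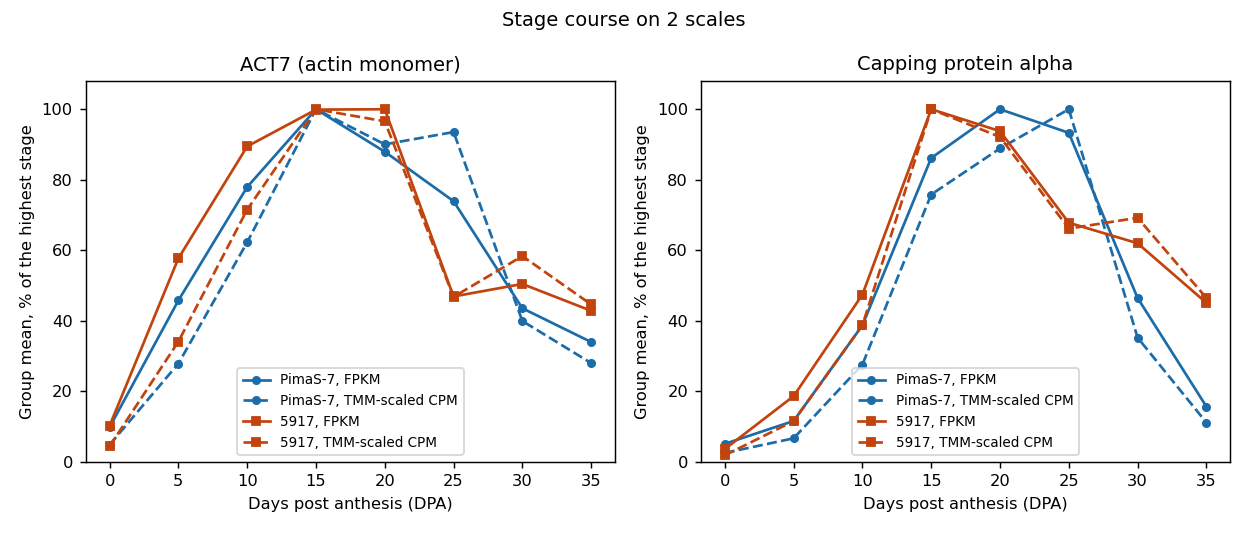
Group means of 3 libraries as a percentage of the highest stage of that gene and material, in FPKM (solid) and TMM-scaled CPM (dashed), PimaS-7 in blue and 5917 in orange. The dashed lines start lower, and for ACT7 in PimaS-7 the 25 DPA mean sits at 93.5% on the TMM scale against 73.9% in FPKM.

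Neighbouring stages were compared within each material on counts with edgeR's quasi-likelihood test, TMM-scaled, with Benjamini-Hochberg adjustment over all genes tested. Calls needed both an adjusted p no higher than 0.05 and a log2 fold change of 1 or more in either direction. Over the 14 steps ACT7 rose in 4 and fell in 2, and capping protein alpha rose in 6 and fell in 2. In the PimaS-7 step from 0 to 5 DPA both genes rose, in a comparison that called 16.1% of the genes tested. ACT7 rose by a log2 fold change of 2.42 (SE 0.23, adjusted p = 0.000426) and capping protein alpha by 1.302 (SE 0.20, adjusted p = 0.00316). From 5 to 10 DPA, where 20.9% of genes were called, the order turned: capping protein alpha rose by 2.03 (SE 0.19, adjusted p = 0.000709) and ACT7 by 1.14 (SE 0.25, adjusted p = 0.0108). From 10 to 15 DPA, with 12.1% of genes called, capping protein alpha rose by 1.46 (SE 0.13, adjusted p = 0.000447). ACT7 had a log2 fold change of 0.69 (SE 0.11, adjusted p = 0.00391), under the fold threshold. Thus the capping subunit passed the threshold in each of the first 3 steps of PimaS-7 and the monomer in 2.

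Neither gene was called in PimaS-7 from 15 to 20 DPA, where 5.65% of genes were, nor from 20 to 25 DPA, where 14.1% were. The 4 log2 fold changes lay between -0.16 and 0.22. From 25 to 30 DPA, with 18.2% of genes called, both fell: ACT7 by 1.14 (SE 0.14, adjusted p = 0.00360) and capping protein alpha by 1.42 (SE 0.23, adjusted p = 0.00710). From 30 to 35 DPA, with 3.95% called, capping protein alpha fell by 1.62 (SE 0.33, adjusted p = 0.0465). ACT7 had a log2 fold change of -0.47 (95% interval -0.99 to 0.06), which did not pass. The late fall of the capping subunit lost its call when any library but PimaS-7 35 DPA replicate 2 was left out, with adjusted p-values up to 0.190.

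The rise in 5917 had the same steps. From 0 to 5 DPA, with 25.1% of genes called, ACT7 rose by 2.92 (SE 0.15, adjusted p = 1.56e-05) and capping protein alpha by 2.60 (SE 0.18, adjusted p = 4.68e-05). From 5 to 10 DPA, with 23.4% called, ACT7 rose by 1.07 (SE 0.15, adjusted p = 0.00183) and capping protein alpha by 1.74 (SE 0.19, adjusted p = 0.000739). From 10 to 15 DPA, with 20.3% called, capping protein alpha rose by 1.34 (SE 0.13, adjusted p = 0.000202), while ACT7, at 0.45 (SE 0.09, adjusted p = 0.00597), stayed under the fold threshold. Neither gene was called from 15 to 20 DPA, a step that called 0.374% of genes. From 20 to 25 DPA, with 25.7% called, ACT7 fell by 1.03 (SE 0.31, adjusted p = 0.0372). The log2 fold change of capping protein alpha there was -0.47 (95% interval -1.15 to 0.21). The fall of ACT7 lost its call when any library but 5917 25 DPA replicate 2 was left out, with adjusted p-values up to 0.150. Neither gene was called from 25 to 30 DPA or from 30 to 35 DPA, 2 steps that called 0.0395% and 0.0182% of genes.

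The rises of ACT7 from 5 to 10 DPA, 1.14 in PimaS-7 and 1.07 in 5917, sat close to the fold threshold. Scaled by library totals they were 0.74 and 0.62, with adjusted p-values of 0.0170 and 0.00290, and so were not called. Leaving out replicate 3 at 5 DPA brought them to 0.92 and 0.95. The fall of ACT7 in PimaS-7 from 25 to 30 DPA was likewise 0.74 on the log2 scale by library totals, and thus under the threshold. The rises of capping protein alpha from 0 to 15 DPA kept their calls in both materials under every setting tried.

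**Figure D3:**
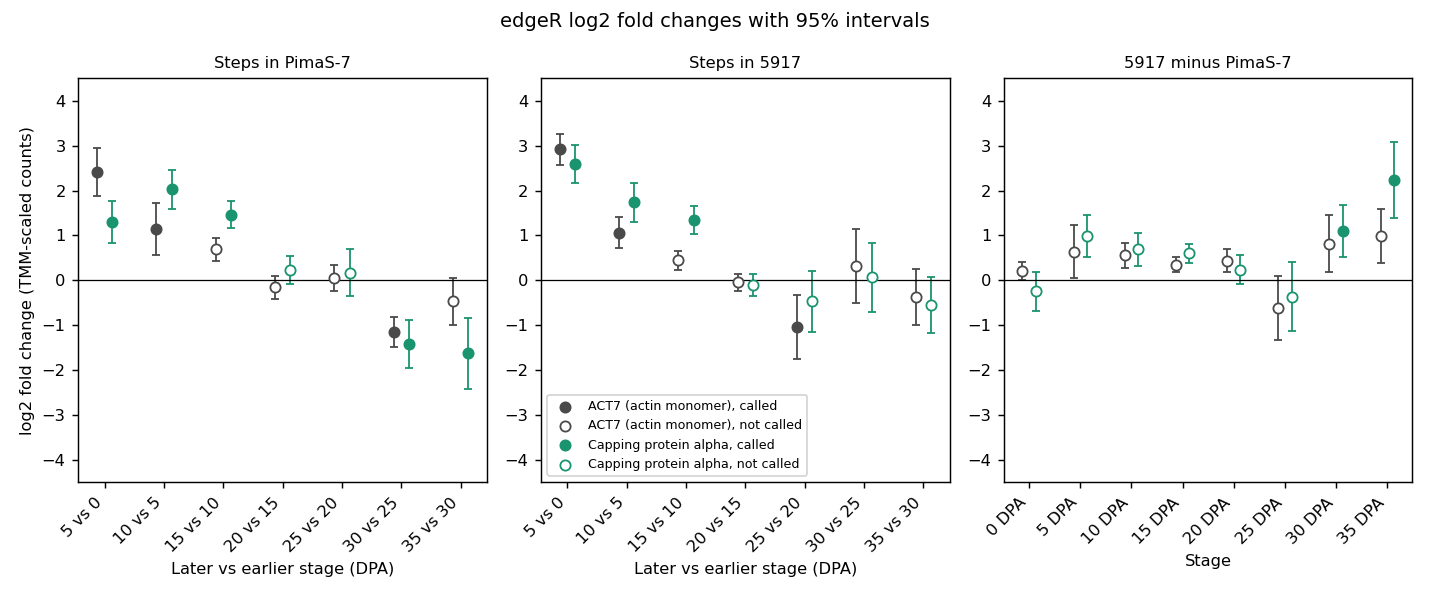
Log2 fold changes from edgeR (points) with 95% intervals (bars), for the 7 steps of PimaS-7 (left), the 7 steps of 5917 (middle) and 5917 minus PimaS-7 at each of the 8 stages (right), ACT7 in grey and capping protein alpha in green. Filled points passed both thresholds: capping protein alpha was called in the first 3 steps of each material and, between the materials, at 30 and 35 DPA with 1.10 and 2.24.

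At equal age, 5917 mostly held more of both RNAs than PimaS-7. In FPKM every 5917 library was above every PimaS-7 library for ACT7 at 0, 5, 10, 15, 20, 30 and 35 DPA, with means 1.10 to 1.39 times as high, and every PimaS-7 library was above every 5917 library at 25 DPA. On TMM-scaled CPM the 25 DPA libraries overlapped, at 840, 886 and 745 in PimaS-7 and 443, 758 and 399 in 5917. Capping protein alpha was apart in the same sense, 5917 above PimaS-7, at 5, 10, 15, 30 and 35 DPA, and overlapped at 0, 20 and 25 DPA. By edgeR's test, ACT7 was called at none of the 8 stages and capping protein alpha at 2. ACT7 had an adjusted p under the threshold without reaching the fold at 10, 15, 20 and 35 DPA, with log2 differences (5917 minus PimaS-7) of 0.55, 0.35, 0.44 and 0.99. Capping protein alpha did so at 5, 10 and 15 DPA, with 0.99, 0.69 and 0.60. Of all genes tested, 2.51%, 4.89%, 5.08% and 12.6% were called at 0, 5, 10 and 15 DPA. The shares were 8.91% and 6.91% at 20 and 25 DPA, where the differences were 0.24 and -0.36 for capping protein alpha and that of ACT7 at 25 DPA was -0.62 (95% interval -1.33 to 0.09).

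The materials differed most in capping protein alpha at the end of the course. At 30 DPA the libraries of 5917, at 78.0, 72.5 and 79.02 FPKM, lay above those of PimaS-7, at 54.6, 48.1 and 45.8 FPKM. The log2 difference was 1.10 (SE 0.25, adjusted p = 0.0389), in a comparison that called 7.83% of genes. Scaled by library totals it was 0.66 (adjusted p = 0.0387), under the fold threshold, and it lost its call when any library but 5917 30 DPA replicate 2 was left out, with adjusted p-values up to 0.173. At 35 DPA 5917 was 3.33 times as high in FPKM (55.6 ± 10.2 against 16.7 ± 6.10, SD, n = 3), with the lowest 5917 library at 45.1 FPKM and the highest PimaS-7 library at 21.8 FPKM. The log2 difference was 2.24 (SE 0.36, adjusted p = 0.00904), with 18.2% of genes called, and its call held under every setting tried. The 4 photosynthesis marker genes summed to 1.6 to 8.63 FPKM in these PimaS-7 libraries and 18.5 to 24 FPKM in those of 5917, and their part in the difference was not tested. At 35 DPA 1 of the 4 was above 0.5 FPKM in all libraries of each material. ACT7 differed by 0.99 there (SE 0.26, adjusted p = 0.0305), just under the fold threshold, which it passed with DESeq2 at 1.05 (adjusted p = 0.000493). At 30 DPA ACT7 had 0.82 (adjusted p = 0.0990).

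Whether a step differed between the materials was tested as an interaction of material and stage over 12 libraries. Of the 14 tests on both genes, 3 passed. Capping protein alpha rose more in 5917 than in PimaS-7 from 0 to 5 DPA, by a log2 difference of 1.23 (SE 0.28, adjusted p = 0.0482), in a comparison that called 1.65% of genes. ACT7 fell more in 5917 from 20 to 25 DPA, by 1.08 (SE 0.32, adjusted p = 0.0398), with 13.7% called. It then fell in PimaS-7 but not in 5917 from 25 to 30 DPA, a difference of 1.48 (SE 0.40, adjusted p = 0.0440), with 8% called. Capping protein alpha had a difference of the same size there, 1.51 (SE 0.44), whose adjusted p was 0.0535. No difference between the 2 genes in these interactions was tested.

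These 3 calls were near the threshold. The capping subunit's lost its call when any library but 5917 5 DPA replicate 3 or PimaS-7 5 DPA replicate 2 was left out, with adjusted p-values of 0.0321 to 0.119. The ACT7 call from 20 to 25 DPA held without 5917 25 DPA replicate 2 only, over a range of 0.00114 to 0.104, and that from 25 to 30 DPA held without 5917 25 DPA replicate 2 or 5917 30 DPA replicate 2 only, over 0.0118 to 0.105. None of the remaining interactions was called: 0.0849% of genes were called for 10 vs 5 DPA, 6.89% for 15 vs 10 DPA, 6.77% for 20 vs 15 DPA and 0.0262% for 35 vs 30 DPA. At the last step capping protein alpha had 1.12 (95% interval 0.09 to 2.14, adjusted p = 0.459).

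The ratio of the monomer to the capping subunit within a library leaves out the scaling factor of that library, though not the gene lengths behind FPKM. The CPM of the library totals behind each FPKM implied a length of 1816 and 1841 bases for capping protein alpha in the ovules of PimaS-7 and 5917 and 1484 to 1560 from 10 DPA on. For ACT7 the implied length was 2632 to 2858 bases over the groups. The listed gene lengths were 2357 bases for ACT7 and 2569 for capping protein alpha. The size of the ratio therefore depends on which lengths are used. In PimaS-7 there were 5.39 ± 1.07 FPKM of ACT7 for each FPKM of capping protein alpha in ovules (SD, n = 3) and 10.8 ± 2.43 at 5 DPA. The 10, 15, 20 and 25 DPA fibers had lower ratios of 5.52 ± 0.34, 3.19 ± 0.39, 2.41 ± 0.16 and 2.25 ± 0.50. It was 2.56 ± 0.12 at 30 DPA and 6.54 ± 2.73 at 35 DPA, the widest spread, with libraries at 4.85, 5.09 and 9.69. The capping subunit thus gained on the monomer from 5 DPA to the plateau and lost part of that gain at the last PimaS-7 stage, where 2 of 3 libraries lay below every 5 DPA library.

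In 5917 the ratio was 7.42 ± 0.95 in ovules, and 8.07 ± 0.44, 4.94 ± 0.53 and 2.59 ± 0.11 in the fibers of 5, 10 and 15 DPA. Those of 20, 25, 30 and 35 DPA had 2.77 ± 0.15, 1.81 ± 0.17, 2.11 ± 0.18 and 2.51 ± 0.50. Here it stayed low to the end. The stages differed in both materials by a permutation test of the log2 ratio over 8 stages with 100000 resamples (F of 23.4 in PimaS-7 and 81.6 in 5917, p = 1e-05 each, the smallest they can give). The log2 ratio of capping protein alpha to ACT7 was higher in 5917 by a mean of 0.26 over the stages (two-sided permutation test within stages, p = 0.00903), being higher at 6 of 8 stages and lower at 0 and 20 DPA, by 0.47 and 0.21. That difference rested on 35 DPA, where it was 1.32: without that stage it was 0.11 (permutation test, p = 0.144).

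**Figure D4:**
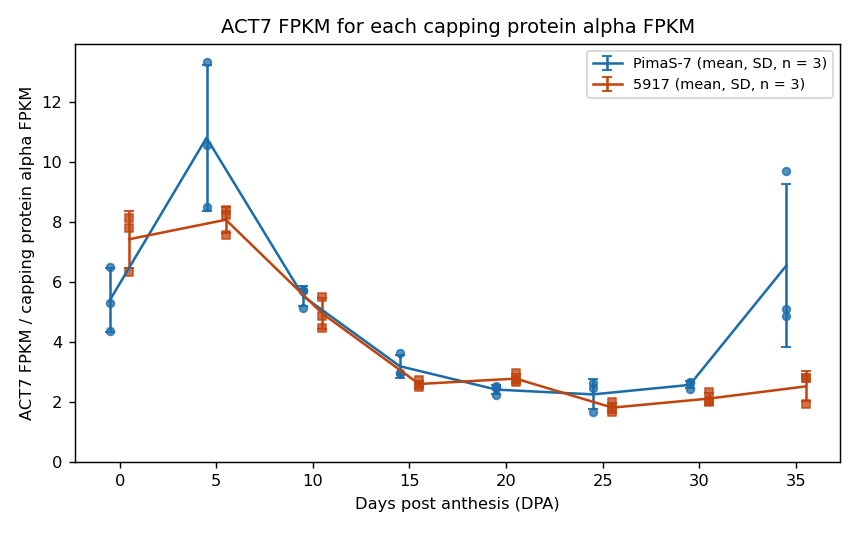
FPKM of ACT7 divided by FPKM of capping protein alpha in each library (points) with the mean and SD of 3 libraries (lines and bars) against days post anthesis, PimaS-7 in blue circles and 5917 in orange squares. Both materials drop from 10.8 and 8.07 at 5 DPA to near 2 at 25 DPA, and at 35 DPA the PimaS-7 libraries range from 4.85 to 9.69.

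Within groups, libraries with more ACT7 tended to have more capping protein alpha. Over the 48 libraries, deviations from the group mean of log2(FPKM + 1) had a Pearson r of 0.372 (permutation within groups, p = 0.0381) and a Spearman rho of 0.432 (p = 0.0173). Without PimaS-7 5 DPA replicates 1 and 3, the libraries farthest from the median in ACT7, r was 0.444 (permutation p = 0.0280). It was 0.267 (permutation p = 0.287) in the 24 PimaS-7 libraries and 0.566 (p = 0.0554) in the 24 libraries of 5917. On TMM-scaled counts r was 0.752 (permutation p = 3e-05), so its size depends on the scale, and both values of a library share that library's scaling.

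Other named actin cytoskeleton genes of the fiber strength intervals were less abundant in most libraries. The list holds 20 genes that the study's table of interval genes names as plant actin cytoskeleton proteins, both genes described here included. Actin cytoskeleton genes outside these intervals carried no names here and are not in the list. ACT7 had the highest FPKM of the list in all 48 libraries and capping protein alpha the next highest in 39. The other 18 genes reached at most 27.3 FPKM in any library, and 5 of them stayed at or under 1 FPKM in every library. Those 5 include the interval genes of the severing factor ADF and of the bundling proteins PLIM2B and PLIM2C. Of the 13 that passed 1 FPKM in some library, 4 had their highest stage mean in the ovules of both materials, namely ARP7, FH3, FIP2 and ROPGEF14. In 181 tests of steps the 18 genes rose in 9 and fell in 9, which is 9.94% of these tests against 13.5% over all genes. Between the materials they were higher in 5917 in 1 test and lower in 2, of 103, which is 2.91% against 8.24% over all genes. Of 91 interactions 2 were called in each direction, or 4.4% against 5.22% over all genes.

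In the steps where ACT7 or capping protein alpha was called, the medians of the other listed genes were small and lay on the side of the call. In the steps from 0 to 5, 5 to 10 and 10 to 15 DPA the median log2 fold change of those tested was 0.11, 0.13 and 0.34 in PimaS-7, against -0.07, -0.07 and -0.06 over all genes. In 5917 it was 0.23, 0.24 and 0.16, against -0.09, -0.08 and -0.08. It was -0.20 and -0.22 in PimaS-7 from 25 to 30 and 30 to 35 DPA, against 0.15 and 0.06, and -0.15 in 5917 from 20 to 25 DPA, against 0.08. In PimaS-7 from 15 to 20 DPA, without a call, the median was -0.17, with ACT7 at -0.16 and capping protein alpha at 0.22. Between the materials (5917 minus PimaS-7) the medians were -0.03, 0.01, -0.09 and 0.12 at 5, 10, 15 and 20 DPA. They were 0.009 and 0.02 at 30 and 35 DPA, where capping protein alpha was called. No test was made of these medians.

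The course of single listed genes ran partly with and partly against that of ACT7 and capping protein alpha. Among the proteins that link filaments to cargo, MYOB1, a myosin receptor, fell from 0 to 5 DPA in 5917 by 1.07 on the log2 scale (SE 0.14, adjusted p = 0.000748), where both genes rose. Its largest change in that material ran with capping protein alpha, a rise from 10 to 15 DPA by 2.37 (SE 0.17, adjusted p = 4.16e-05), from 2.08 to 9.08 FPKM. In PimaS-7 MYOB1 had means of 2.72 and 2.97 FPKM at 10 and 15 DPA, where capping protein alpha rose. Its mean was 7.11 FPKM at 20 DPA. From 25 to 30 DPA, where ACT7 and capping protein alpha fell in PimaS-7, MYOB1 went from 10.2 to 13.2 FPKM. In 5917 MYOB1 rose again from 20 to 25 DPA by 1.45 (SE 0.26, adjusted p = 0.00522), the step at which ACT7 fell. Its level there went from 5.95 to 14.8 FPKM. The myosin motors moved with ACT7 at this step: XI-2 fell by 1.21 (SE 0.24, adjusted p = 0.00713), and the copies of XI-E on D08 and D11 fell by 1.10 and 1.63 (adjusted p = 0.00880 and 0.0109). That of the D08 copy, Gbar_D08G021300, was not called by limma on FPKM, and neither was that of the D11 copy, Gbar_D11G027500.

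Of the genes that start new filaments, ABIL1, a subunit of the SCAR/WAVE complex that turns on the Arp2/3 complex, rose from 10 to 15 DPA in 5917 by 1.76 (SE 0.11, adjusted p = 1.9e-05). In PimaS-7 it rose from 20 to 25 DPA by 1.16 (SE 0.14, adjusted p = 0.00146), or by 0.90 scaled by library totals, under the fold threshold. Its partner BRK1 rose from 0 to 5 DPA in PimaS-7 by 1.18 (SE 0.28, adjusted p = 0.0181), or by 0.94 scaled by library totals. The formin FH3, which nucleates filaments, and FIP2, named for its binding to a formin, were called in no comparison. Nor was ARP7, a nuclear actin-related protein. ROPGEF14, an activator of the Rop GTPases that steer actin at the cell tip, was highest in ovules and fell from 20 to 25 DPA by 2.50 in PimaS-7 (SE 0.37, adjusted p = 0.00368) and by 3.34 in 5917 (SE 0.50, adjusted p = 0.00222). NET1D, which ties actin to membranes, was the listed gene besides capping protein alpha that differed between the materials at 35 DPA, and it was lower in 5917 by 1.10 (SE 0.20, adjusted p = 0.0117).

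**Figure D5:**
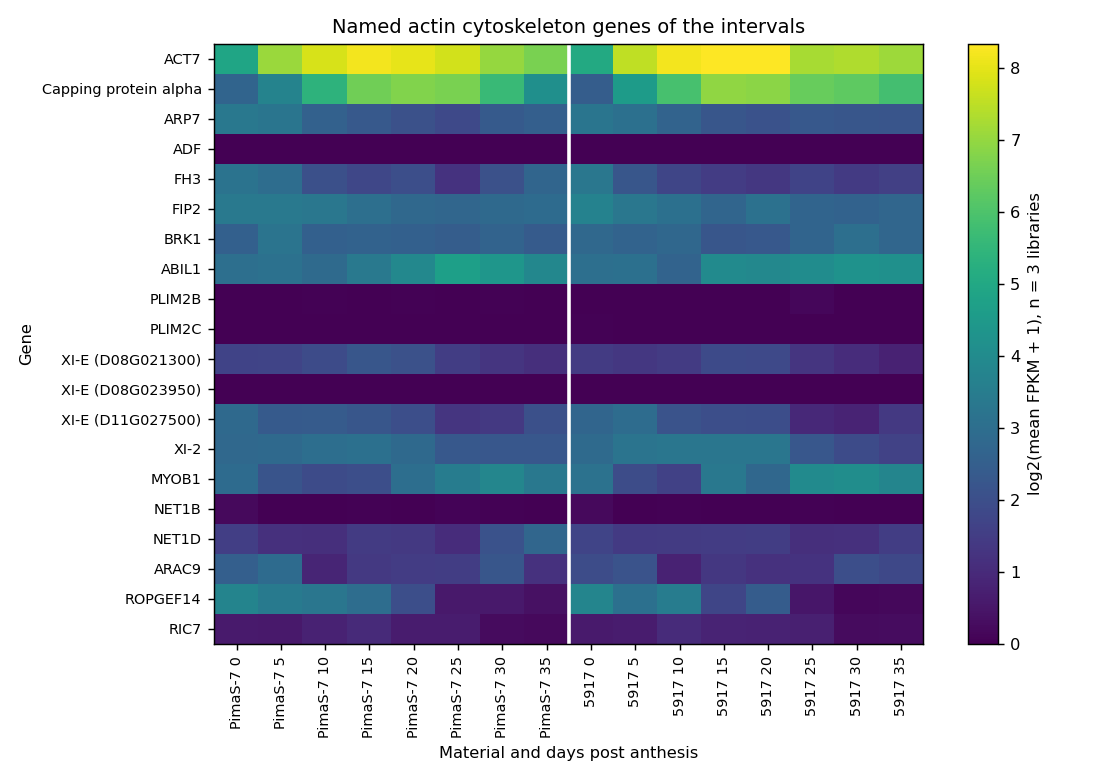
Mean FPKM of 3 libraries on a log2(FPKM + 1) scale (colour) for the 20 named actin cytoskeleton genes of the intervals (rows) in the 8 stages of PimaS-7 (left) and 5917 (right). From 10 DPA on ACT7 and capping protein alpha are the brightest rows, while the other 18 genes stay at or under 27.3 FPKM in every library.

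The genes whose course was most like that of ACT7 were found by Pearson r of log2(FPKM + 1) over the 48 libraries among 45513 genes with a mean above 0.5 FPKM. Those with the highest r were Gbar_D04G020110 (0.988) and Gbar_A07G001460 (0.986), neither of which has a name in the tables held. Among 1087 genes with a name or description there, the highest were RABH1E, a Rab GTPase of the Golgi (0.949), RANBP1C, a Ran-binding protein of nuclear transport (0.948), At4g10955, a GDSL esterase/lipase (0.937), IMPA1, an importin alpha (0.935), and CSI1, which links cellulose synthase complexes to microtubules (0.927). These named genes lay at places 107 to 255 among all genes ranked, of which 500 had an r above 0.9 with ACT7. By Spearman rho At4g10955 was at place 28, while RABH1E and RANBP1C were at places 440 and 474. For capping protein alpha the genes with the highest r were Gbar_D05G023380 (0.984) and Gbar_D01G015740 (0.982). The highest with a description were Gbar_D08G024460, a match to a fission yeast stress-induced protein (0.969), Gbar_D08G022900, a pyrophosphate-driven proton pump of the vacuole membrane (0.961), ACBP4, an acyl-CoA-binding protein (0.961), RANBP1C again (0.960) and ECH, a trans-Golgi protein of secretion (0.951). Those with a description lay at places 17 to 93, and 482 genes had an r above 0.9 with capping protein alpha. ACT7 and capping protein alpha had an r of 0.869 with each other, which put capping protein alpha at place 835 among the genes most like ACT7. These correlations follow the stage course that all libraries share, and they are descriptions.

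The libraries held 28222056 to 43390702 counted reads (median 32756789), and replicates had a Pearson r of 0.926 to 0.985 across genes. Marker levels also moved with stage and material, as sums of FPKM over a list. The 8 genes of dividing cells summed to 142 to 151 in PimaS-7 ovules and 187 to 216 in those of 5917, and in fibers from 10 DPA on to between 23 and 54.8. Their sums at 25 DPA were 25.3 to 29.2 in PimaS-7 and 35.7 to 53.1 in 5917. Of the 7 tested between the materials at that stage, 2 were called higher in 5917. At 25 DPA, where ACT7 was lower in 5917 in FPKM, the 4 secondary wall genes had sums between 284 and 320 in PimaS-7 and between 129 and 160 in 5917. At 35 DPA, where both genes were at higher FPKM in 5917, these sums lay between 81.7 and 127 in PimaS-7 and between 167 and 201 in 5917. The 4 photosynthesis genes had sums of 5.79 to 15.4 in PimaS-7 fibers of 25 DPA and 19.4 to 39.9 in those of 5917. Of the 2 tested between the materials at that stage, neither was called. In PimaS-7 the sums of all 4 were lower at 35 DPA, at 1.6 to 8.63, than at 30 DPA, at 14.2 to 18.1. Capping protein alpha fell over that step. Neither of the 2 photosynthesis genes tested at that step was called. The 2 seed and embryo genes with a row in the counts, of 4 listed, summed to at most 0.306 from 25 DPA on. The part of these in the levels of ACT7 and capping protein alpha was not tested.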

How the data were processed

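RNA of 48 samples (2 materials, 8 stages, 3 replicates) was sequenced by the authors on an Illumina platform. Adapters and low-quality reads were removed, reads were aligned with HISAT2 (version not given in the sources used here) to a Pima 3-79 genome, and StringTie was used for quantification. The deposited table holds raw counts for 69337 genes, and the program that made the counts is not given in the sources used here. Per-library FPKM values were made by the authors. The handling of reads that match both the A and the D subgenome is not stated either, so values of genes with a near-identical copy are uncertain.

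Groups came from the cultivar and age labels. Every fit used only the 6 libraries compared (12 for interactions), with edgeR 4.0.16 in R 4.3.3, after TMM scaling and removal of low genes (filterByExpr, minimum count 10), using the quasi-likelihood test with Benjamini-Hochberg adjustment over all genes tested. Intervals are 95% intervals of the fit. Alternatives were DESeq2 1.42.0, DESeq2 size factors in edgeR, no filter, a replicate block, 1 fit of all libraries, limma 3.58.1 on log2(FPKM + 1) with FPKM above 0.5 in at least 3 libraries, and each library left out. Scaling by library totals, the other scales of the rise and the ratio without each later stage were added after seeing the data. Ratio tests used 100000 permutations in Python 3.11.15 with scipy 1.17.1. Fits were tested on simulated data.

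ACT7, capping protein alpha and the gene lists were chosen with earlier results of these data known. Named genes were these 2, the other listed actin genes and, for each of the 2, the 2 genes of all and the 5 with a name or description that had the highest Pearson r. Names were held for genes of the fiber strength intervals only, and a description counted as a name.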

Additional observations from a re-analysis of the deposited data

Results flagged for a closer look

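In 3 of 14 tests a step of ACT7 or capping protein alpha differed between the materials by the interaction test of edgeR (quasi-likelihood, Benjamini-Hochberg over all genes). Capping protein alpha rose from 0 to 5 DPA by a log2 fold change of 1.302 in PimaS-7 and 2.60 in 5917, an interaction of 1.23 (adjusted p = 0.0482). ACT7 had 0.05 in PimaS-7 and -1.03 in 5917 from 20 to 25 DPA, an interaction of -1.08 (adjusted p = 0.0398). It had -1.14 in PimaS-7 and 0.32 in 5917 from 25 to 30 DPA, an interaction of 1.48 (adjusted p = 0.0440). The 25 DPA libraries of both materials enter the last 2 tests. In the order given, these comparisons called 1.65%, 13.7% and 8% of the genes tested. Leaving out each of the 12 libraries in turn ended the calls in 10, 11 and 10 of the 12 fits.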

How the results depend on the processing

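Each of 58 values (28 steps, 16 differences between materials and 14 interactions of both genes) was recomputed under 7 other settings. With limma on FPKM, 47 kept their direction and side of the thresholds, and with library totals 48 did. The numbers were 54 without a filter, with DESeq2 size factors, with the block and with 1 fit, and 55 with DESeq2. Library totals moved the median of all genes by -0.591 to 0.401 on the log2 scale against TMM, by more than 0.1 in 20 of 29 comparisons. The cause of the changes was not tested.

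With limma, calls were lost by ACT7 from 5 to 10 DPA (0.79 in PimaS-7, 0.63 in 5917), both genes in PimaS-7 from 25 to 30 DPA (-0.76 for ACT7, -0.96 for capping protein alpha), capping protein alpha between the materials at 30 DPA (0.62) and the ACT7 interactions of 25 vs 20 DPA (-0.85) and 30 vs 25 DPA (0.87). Library totals ended the calls of ACT7 from 5 to 10 DPA (0.74 and 0.62) and from 25 to 30 DPA in PimaS-7 (-0.74), capping protein alpha at 30 DPA (0.66), its interaction of 5 vs 0 DPA (1.04) and the ACT7 interactions (-0.84 and 0.90). Signs turned, in steps not called, for PimaS-7 25 vs 20 DPA (ACT7 -0.25 by limma and -0.21 by totals, capping protein alpha -0.13 and -0.10), 5917 20 vs 15 DPA (ACT7 0.0012 by limma) and 5917 30 vs 25 DPA (capping protein alpha -0.11 and -0.0904).

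Without a filter, the fall of capping protein alpha from 30 to 35 DPA in PimaS-7 (-1.66), its interaction of 5 vs 0 DPA (1.23) and the ACT7 interactions (-1.10 and 1.41) lost their calls. DESeq2 size factors did so for that fall (-1.68) and ACT7 in 5917 from 20 to 25 DPA (-1.03), and 1 fit for the interaction of 5 vs 0 DPA (1.24). Calls were gained by capping protein alpha between the materials at 5 DPA (1.02 with size factors, DESeq2 and 1 fit), by ACT7 at 35 DPA (1.06, 1.05 and 1.05) and by the capping protein alpha interaction of 30 vs 25 DPA (1.53 with DESeq2, 1.58 with 1 fit). In the count of genes, 5917 35 vs 30 DPA had 8 calls and 829 with DESeq2.

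The replicate numbers did not pair the libraries: none of 22 comparisons had every same-numbered pair correlated above 0.1 (-0.432 to 0.229). A replicate block ended the calls of capping protein alpha from 30 to 35 DPA in PimaS-7 (-1.71), ACT7 from 20 to 25 DPA in 5917 (-1.09) and the ACT7 interaction of 30 vs 25 DPA (1.495), and brought ACT7 at 35 DPA between the materials past the threshold (1.00).

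Leaving out each library gave 432 values, of which 370 kept direction and side, 48 lost a call, 5 gained one and 9 turned sign. The ranges were, for steps, 0.92 to 1.29 (ACT7, PimaS-7 10 vs 5 DPA), -0.0024 to 0.13 and -0.11 to 0.31 (ACT7 and capping protein alpha, PimaS-7 25 vs 20 DPA), -2.04 to -1.33 (capping protein alpha, PimaS-7 35 vs 30 DPA), 0.95 to 1.17, -0.0768 to 0.0155 and -1.37 to -0.88 (ACT7, 5917 10 vs 5, 20 vs 15 and 25 vs 20 DPA) and -0.14 to 0.39 (capping protein alpha, 5917 30 vs 25 DPA). Between the materials they were 0.84 to 1.15 and 0.89 to 1.28 for capping protein alpha at 5 and 30 DPA and 0.90 to 1.28 for ACT7 at 35 DPA. For interactions of ACT7 they were -0.26 to 0.16 (10 vs 5 DPA), -1.43 to -0.92 (25 vs 20 DPA), 1.23 to 1.80 (30 vs 25 DPA) and -0.0276 to 0.43 (35 vs 30 DPA), and for those of capping protein alpha 1.08 to 1.41 (5 vs 0 DPA), -0.25 to 0.0278 (15 vs 10 DPA) and 1.23 to 1.83 (30 vs 25 DPA).

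The rise over the ovules was 20.7 and 22.8 times for ACT7 and 39.9 and 54.0 times for capping protein alpha on TMM-scaled counts, in PimaS-7 and 5917. The mean log2 ratio difference between the materials was 0.11 (permutation p = 0.144) without 35 DPA. Of the 100 genes most like ACT7 by Pearson r, 34 stayed by Spearman rho, and of those most like capping protein alpha 50 did.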
